A study of Homo sapiens with 6 samples.

Results

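The 10 genes described here encode secreted signals of inflammation and the enzyme that starts prostaglandin synthesis. They are the chemokine genes CXCL8, CXCL1, CXCL2, CXCL3 and CCL2, the cytokine genes IL6, IL11, LIF and CSF1, and PTGS2. They were taken by name from the deposited count table, where all 10 were listed among 20030 gene names. The RNA came from KGN, a human line derived from an ovarian granulosa-like tumour and grown in medium with 10% serum. In 3 libraries (genotype labelled SNHG5 knockdown) the cells had received an siRNA directed at the long noncoding RNA SNHG5, and in 3 libraries (genotype labelled WT) a negative control siRNA. RNA was collected 48 h after transfection in both groups, so both carried a transfected siRNA, and no untransfected cells were among these samples. The labels do not say whether the replicates were separate cultures or how many siRNA sequences were used, so each p measures the spread between these samples, which may be technical. SNHG5 was not analysed here and the depth of its knockdown is not given.

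Chemokines are small secreted proteins that attract leukocytes through G protein-coupled receptors, and the CXC chemokines of this set are known as attractants of neutrophils, CCL2 as an attractant of monocytes. IL6, IL11 and LIF signal through receptors that share the subunit encoded by IL6ST and activate JAK kinases and STAT3, while CSF1 supports macrophages through the receptor encoded by CSF1R. PTGS2 encodes the inducible cyclooxygenase; in granulosa cells of the ovulatory follicle it is induced by the luteinizing hormone surge and supplies prostaglandins needed for ovulation and cumulus expansion. Many of these genes are known to be switched on by NF-kB and AP-1 at the promoter, and their mRNAs to be short-lived through AU-rich elements, repeats of AUUUA in the 3' end of the message.

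The promoters are shown because the set is known for control at this level and because its members did not move in the same direction. Of the 10 genes, 7 were matched in the table of RefSeq promoters used here (GRCh38.p14), and CCL2, LIF and CSF1 were not. The 120 bases just before the annotated start are given 5′ to 3′ on the strand of the gene, with matches to an NF-kB word (GGANTTTCC), an AP-1 word (TGANTCA) and a half-site of the cAMP response element (TGACG), read on both strands, in capitals.
CXCL8, chr4:73740449-73740568, plus strand: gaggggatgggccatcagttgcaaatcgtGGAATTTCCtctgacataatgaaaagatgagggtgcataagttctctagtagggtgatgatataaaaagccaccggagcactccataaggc
CXCL1, chr4:73869273-73869392, plus strand: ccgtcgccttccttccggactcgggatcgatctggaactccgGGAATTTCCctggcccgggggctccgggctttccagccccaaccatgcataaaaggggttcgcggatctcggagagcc
CXCL2, chr4:74099196-74099315, minus strand: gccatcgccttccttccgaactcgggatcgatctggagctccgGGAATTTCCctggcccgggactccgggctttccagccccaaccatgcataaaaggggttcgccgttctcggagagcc
CXCL3, chr4:74038690-74038809, minus strand: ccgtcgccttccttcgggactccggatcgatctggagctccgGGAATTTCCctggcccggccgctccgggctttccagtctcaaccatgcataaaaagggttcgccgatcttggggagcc
IL6, chr7:22727080-22727199, plus strand: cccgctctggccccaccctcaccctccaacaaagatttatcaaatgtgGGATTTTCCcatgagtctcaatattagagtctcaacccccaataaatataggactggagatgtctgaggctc
IL11, chr19:55370464-55370583, minus strand: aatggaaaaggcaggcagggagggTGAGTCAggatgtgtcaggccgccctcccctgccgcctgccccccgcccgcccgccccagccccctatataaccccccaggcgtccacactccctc
PTGS2, chr1:186680424-186680543, minus strand: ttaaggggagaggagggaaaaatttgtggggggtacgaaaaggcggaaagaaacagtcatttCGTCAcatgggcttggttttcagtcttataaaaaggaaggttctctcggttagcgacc

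In windows of 300 bases (250 before the start and 50 from it), the NF-kB word was found in 5 of these 7 promoters, against 1.64% of 27305 promoters. Its first base lay 91 bases before the start in CXCL8, 78 in CXCL1 and CXCL3, 77 in CXCL2 and 72 in IL6. In the closely related genes CXCL1, CXCL2 and CXCL3 the printed bases around the word are nearly the same, so their matches are not separate finds. The AP-1 word was found in 2 of 7, in IL11 at 96 and in CXCL8 at 137 bases before the start, against 7.76% of promoters. The half-site TGACG was found in 5 of 7, against 25.01%, and in PTGS2 a copy on the opposite strand lay 58 bases before the start. These are matches of letters in this window and say nothing of which factors were bound.

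The libraries held 18232634 to 22088913 counts each, so that 3 counts, taken as the limit of detection, were 0.136 to 0.165 CPM (the count over the library total, times 1e+06). SNHG5 siRNA replicate 2 stood apart from the others of its group: the chi-square per degree of freedom of gene counts was 8.35 and 8.57 in its pairs and 1.90 in the remaining pair, against 3.03 to 4.28 between control siRNA replicates. The granulosa markers FOXL2, AMH and NR5A1 averaged 28.6, 13.2 and 38.5 CPM with SNHG5 siRNA and 25.3, 12.4 and 35.8 CPM with control siRNA, whereas CYP11A1 had 1 to 2 counts per library with SNHG5 siRNA and 1 to 4 with control siRNA. Of 14 leukocyte markers, 7 were at 0 in every library, among them CD3E and LYZ. Their summed level was 29.4 to 31.5 CPM with SNHG5 siRNA and 25.1 to 28.8 CPM with control siRNA, most of it from CD68, at 26.0 and 22.3 CPM, which other cell types also express. CD68 was not called (log2 fold change 0.22, edgeR adjusted p = 0.0508) but was without SNHG5 siRNA replicate 2 (0.23, 0.0175) or control siRNA replicate 1 (0.27, 0.0426). With every library kept, edgeR called it with no filter on low counts (0.0319), a replicate block (0.0248), or the length (0.0226) or GC trend (0.0182) removed. It was also called in the FPKM with 1 added (0.27, limma adjusted p = 0.0183). It was not called with DESeq2 (adjusted p = 0.0812) or, in edgeR, with upper quartile scaling (0.113). PTPRC, the pan-leukocyte marker, averaged 1.91 ± 0.13 CPM with SNHG5 siRNA and 2.35 ± 0.39 CPM with control siRNA (SD, n = 3 each), and the part of any such cells in the results was not tested. Of 10 tested granulosa markers 1 was called higher and 3 lower by the edgeR test described next. INHBB, an inhibin and activin subunit, averaged 14.5 ± 0.75 CPM with SNHG5 siRNA and 6.70 ± 1.32 CPM with control siRNA (log2 fold change 1.10, edgeR adjusted p = 6.65e-07). FSHR, the receptor of follicle-stimulating hormone, averaged 1.47 ± 0.35 CPM with SNHG5 siRNA and 3.24 ± 0.24 CPM with control siRNA (-1.15, edgeR adjusted p = 2.32e-04; 0.072 in the FPKM with 1 added). The keratin gene KRT18 fell by 0.43 on the log2 scale and GATA4 by 0.37. The number of granulosa markers called higher was 2 without SNHG5 siRNA replicate 2 and 5 with the GC trend removed. Summed over 14 granulosa markers the level was 2606 to 2866 CPM with SNHG5 siRNA and 3488 to 3620 CPM with control siRNA, and over 12 endothelial and stromal markers it was 4619 to 4917 CPM with SNHG5 siRNA and 5957 to 6324 CPM with control siRNA (4 of 8 tested called lower, KDR at -1.07, PDGFRB at -0.85, COL1A1 at -0.38 and COL3A1 at -0.21, with CDH5 and LUM at 0); their part in the results was not tested either. Such sums follow the genes with the most counts. FOXL2, AMH and NR5A1, at averages of 12.4 to 38.5 CPM, add little to the granulosa sum. In bulk RNA, fewer cells that express a gene and less of its RNA per cell cannot be told apart.

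With SNHG5 siRNA the inflammatory signals moved in both directions. PTGS2 was 2.17-fold and CXCL8 1.45-fold higher, while CXCL2 was 2.31-fold lower and IL11, CSF1 and LIF were 1.29-fold, 1.29-fold and 1.22-fold lower. IL6 and CXCL3 did not pass the test, CXCL1 had too few counts to be tested, and CCL2 had no count in any library. The quasi-likelihood test of edgeR was run on all 12508 genes that passed its filter on low counts, and a gene was called at a Benjamini-Hochberg adjusted p under 0.05. By this rule 40.2% of all tested genes were called, 20.3% higher and 19.9% lower, and of the 10 genes here 2 were called higher, 4 lower, 2 were tested and not called, and 2 were not tested. CXCL2 entered the test only through its control libraries, and PTGS2 entered through the SNHG5 siRNA libraries with 1 control library over the limit of 0.497 CPM; since genes at these levels had to be high in a group to be tested, the count is read as a description. The median log2 fold change of the 8 was -0.32, beside -0.01 over all tested genes. In 6 of the 8 no CPM value of either group reached into the range of the other, against 49.7% of all tested genes.

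**Figure D1:**
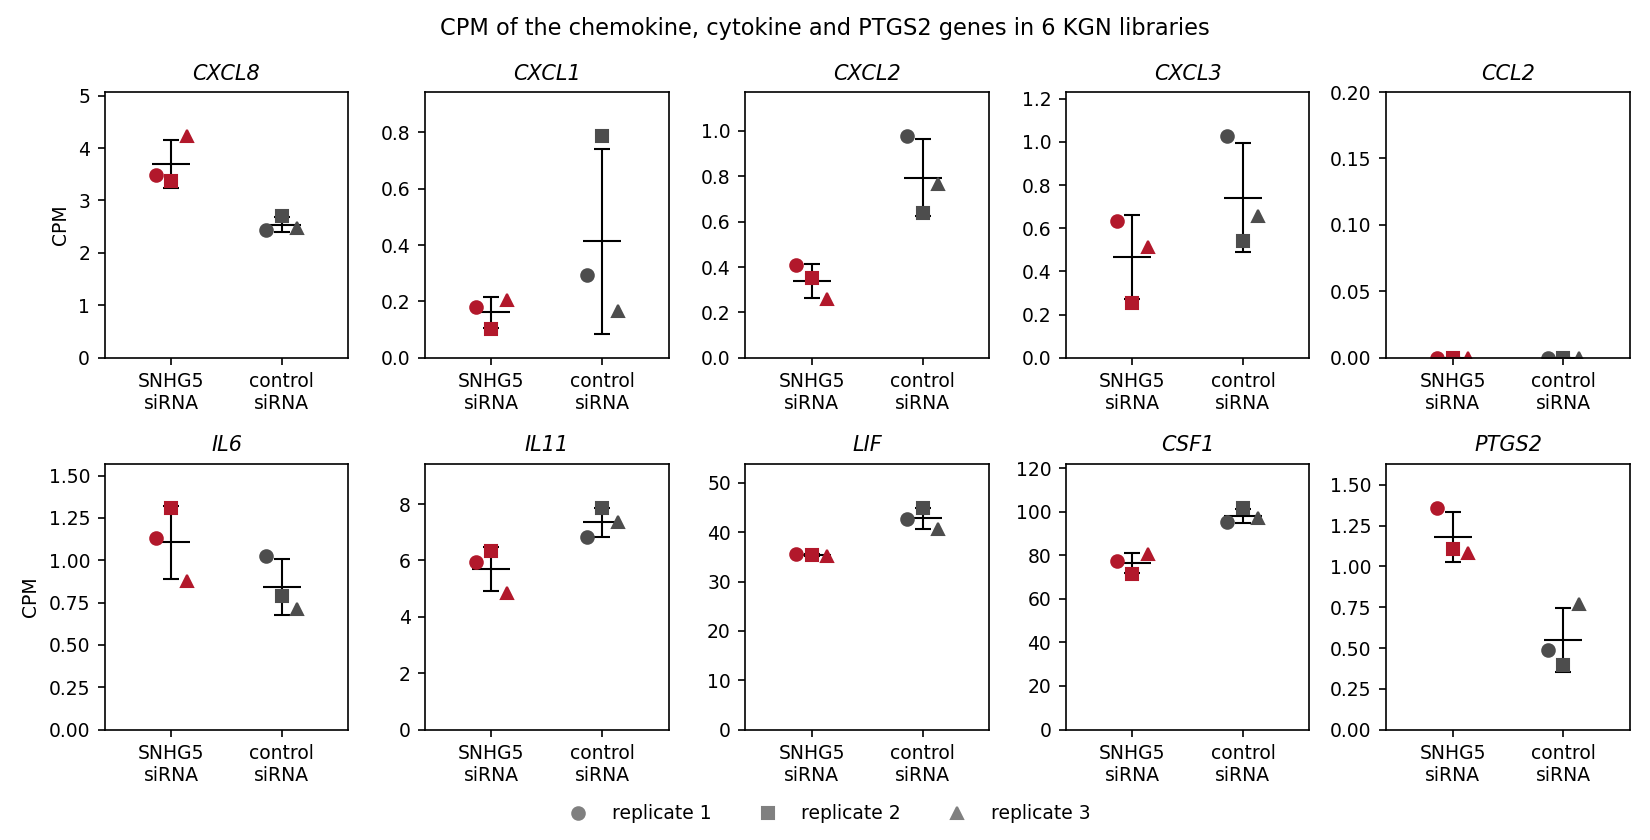
CPM of each gene (y axis, from 0, its own scale per panel) in the 3 SNHG5 siRNA libraries (red, left) and the 3 control siRNA libraries (grey, right); symbols mark replicates, bars the mean ± SD. CXCL8 and PTGS2 lie higher and CXCL2, IL11, LIF and CSF1 lower with SNHG5 siRNA with no overlap of groups, and CCL2 is at 0 throughout.

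CXCL8 encodes the neutrophil attractant interleukin 8 (ENSG00000169429.10, chromosome 4, 73740506 to 73743716, plus strand, GRCh38). It had 77, 67 and 82 counts with SNHG5 siRNA and 50, 55 and 45 counts with control siRNA, or 3.49, 3.37 and 4.22 CPM against 2.44, 2.70 and 2.47 CPM. Every SNHG5 siRNA library lay above every control library, and the highest was SNHG5 siRNA replicate 3. The log2 fold change was 0.53 ± 0.17 (SE), with an edgeR adjusted p of 0.0191, while an exact 2-sided permutation test of the CPM gave p = 0.1, the smallest that 3 against 3 libraries allow. The call rested on single libraries: the adjusted p was 0.0978 without SNHG5 siRNA replicate 3 (log2 fold change 0.43), 0.0587 without control siRNA replicate 1 (0.50) and 0.0537 without control siRNA replicate 3 (0.51). It was also lost with DESeq2 (adjusted p = 0.0738), with the trend on GC content removed (0.0742) and in the FPKM (0.0513 with 1 added before the log2).

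The other 3 CXC genes lie with CXCL8 on chromosome 4, CXCL1 126 kb from CXCL8 and CXCL3 58.2 kb from CXCL2, and encode closely related attractants of neutrophils. Their coding sequences of 321 bases are 93.5% (CXCL1 and CXCL2), 90.7% (CXCL1 and CXCL3) and 94.4% (CXCL2 and CXCL3) identical, whereas CXCL8 is 52.4% to 54.0% identical to them. Of 1048 words of 50 bases in the CXCL1 transcript, 60 were also in CXCL2 and 6 in CXCL3. A read that lies wholly in such a shared stretch cannot be assigned to either gene. How many reads did so was not measured, and how the authors' counting treated them is not stated in the labels. The values of CXCL1, CXCL2 and CXCL3 are therefore uncertain as between the 3 genes.

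CXCL2 had 9, 7 and 5 counts with SNHG5 siRNA and 20, 13 and 14 counts with control siRNA, or 0.407, 0.352 and 0.257 CPM against 0.977, 0.639 and 0.768 CPM. The groups did not overlap, and control siRNA replicate 1 was the highest library. Its log2 fold change was -1.21 ± 0.39 (SE; edgeR adjusted p = 0.0200), and the groups' summed counts, divided by their library totals, had a ratio of 0.430 (exact 95% limits 0.244 to 0.734, counting error only). CXCL2 passed the filter on low counts through its control libraries alone, so its fall is read as a description. The call ended without SNHG5 siRNA replicate 3 (-1.05, adjusted p = 0.0738) or control siRNA replicate 1 (-1.03, 0.102), and with DESeq2 (adjusted p = 0.0895); in the FPKM the log2 fold change was -0.23 with 1 added (adjusted p = 0.201).

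CXCL3 had 14, 5 and 10 counts with SNHG5 siRNA and 21, 11 and 12 counts with control siRNA. SNHG5 siRNA replicate 1, at 0.634 CPM, lay above control siRNA replicate 2, at 0.540 CPM. The log2 fold change was -0.66 ± 0.41 (SE) and did not pass (edgeR adjusted p = 0.214), and the interval of the scaled count ratio, 0.383 to 1.04, held equality. CXCL1 had 4, 2 and 4 counts with SNHG5 siRNA and 6, 16 and 3 counts with control siRNA. Its control values ran from 0.165 to 0.786 CPM, the highest in replicate 2, and the groups overlapped. The scaled count ratio of CXCL1 was 0.385 (exact 95% interval 0.165 to 0.830, counting error only), and with no filter on low counts edgeR gave a log2 fold change of -1.34 with an adjusted p of 0.105.

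CCL2, the monocyte attractant (chromosome 17, 34255218 to 34257203, plus strand), had 0 counts and 0 FPKM in all 6 libraries. At these depths its level was below 0.136 to 0.154 CPM in the SNHG5 siRNA libraries and 0.146 to 0.165 CPM in the control libraries, and no fold can be given.

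Of the 3 cytokines that signal through the IL6ST subunit, IL11 and LIF were called lower and IL6 was not called. IL6, the acute-phase cytokine (chromosome 7, 22725884 to 22732002, plus strand), had 25, 26 and 17 counts with SNHG5 siRNA and 21, 16 and 13 counts with control siRNA. The lowest SNHG5 siRNA library, replicate 3 at 0.875 CPM, lay below control siRNA replicate 1 at 1.03 CPM, and the log2 fold change of 0.38 ± 0.30 (SE) did not pass (edgeR adjusted p = 0.325). The interval of its scaled count ratio, 0.895 to 1.93, held both equality and the 1.45 of CXCL8. Exons of IL6 overlap 428 exonic bases of the antisense gene AC073072.1 and 46 of STEAP1B; whether reads were counted by strand is not stated in the labels, so the genes cannot be told apart there.

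IL11, known in the uterus for its part in decidualization and in bone for osteoclast formation (ENSG00000095752.6, chromosome 19, 55364389 to 55370463, minus strand), had 131, 126 and 94 counts with SNHG5 siRNA and 140, 160 and 134 counts with control siRNA. In CPM the values were 5.93, 6.34 and 4.84 against 6.84, 7.86 and 7.35, and the groups did not overlap, with SNHG5 siRNA replicate 3 the lowest. Its log2 fold change was -0.37 ± 0.13 (SE; edgeR adjusted p = 0.0278). The call ended without SNHG5 siRNA replicate 3 (-0.27, adjusted p = 0.141), control siRNA replicate 2 (-0.31, 0.113) or control siRNA replicate 3 (-0.37, 0.0715), and with DESeq2 (adjusted p = 0.0948) or the FPKM (0.0638 with 1 added).

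LIF, leukemia inhibitory factor, known for its part in embryo implantation (ENSG00000128342.4, chromosome 22, 30240447 to 30246851, minus strand), was at 35.5, 35.3 and 35.2 CPM with SNHG5 siRNA and 42.8, 44.9 and 40.8 CPM with control siRNA. The SNHG5 siRNA libraries lay within 0.4 CPM of each other and below every control library. The log2 fold change was -0.28 ± 0.06 (SE; edgeR adjusted p = 0.00183), and it passed under all 17 other settings, at -0.32 to -0.16. Exons of LIF overlap 175 exonic bases of the antisense gene AC004264.1 and 92 of LIF-AS1, and as for IL6 the genes cannot be told apart there.

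CSF1, the macrophage growth factor (ENSG00000184371.13, chromosome 1, 109910242 to 109930992, plus strand), had the most counts of the set, 1706, 1422 and 1561 with SNHG5 siRNA and 1951, 2070 and 1771 with control siRNA. In CPM these were 77.2, 71.6 and 80.4 against 95.3, 102 and 97.1, with no overlap and SNHG5 siRNA replicate 2 the lowest. The log2 fold change was -0.36 ± 0.06 (SE; edgeR adjusted p = 6.4e-05), a level 22.3% lower, and it passed under all 17 other settings, at -0.41 to -0.28. Without SNHG5 siRNA replicate 2 it was -0.32 (adjusted p = 1.95e-06).

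PTGS2 (ENSG00000073756.11, chromosome 1, 186671791 to 186680427, minus strand), the cyclooxygenase gene, had 30, 22 and 21 counts with SNHG5 siRNA and 10, 8 and 14 counts with control siRNA. In CPM these were 1.36, 1.11 and 1.08 against 0.488, 0.393 and 0.768; the groups did not overlap, and the highest library was SNHG5 siRNA replicate 1. The log2 fold change was 1.12 ± 0.33 (SE; edgeR adjusted p = 0.0111), the largest of the 8 upward, and the scaled count ratio was 2.20 (exact 95% interval 1.43 to 3.44, counting error only). PTGS2 passed the filter on low counts through its SNHG5 siRNA libraries, with 1 control library over the limit, so its rise is read as a description. The call ended without control siRNA replicate 2 (0.92, adjusted p = 0.0681) and with DESeq2 (adjusted p = 0.0529). In the FPKM the rise passed, at 0.18 with 1 added (adjusted p = 0.0208) and 0.81 with 0.1 added (0.0151); added values of this size shrink the change of a gene at this level.

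**Figure D2:**
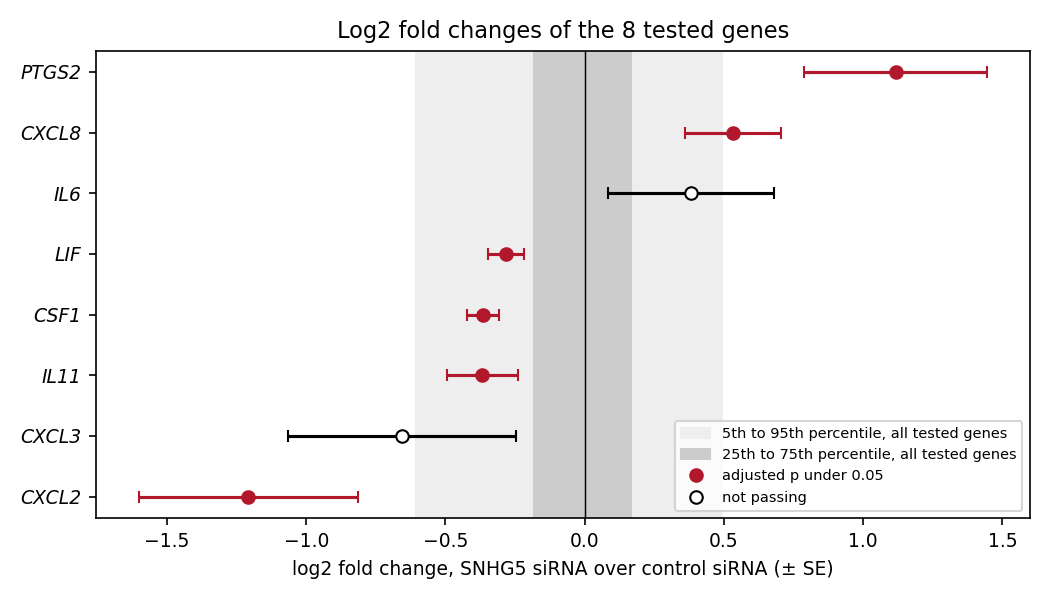
Log2 fold change of SNHG5 siRNA over control siRNA (x axis, ± SE) of the 8 tested genes, filled red at an adjusted p under 0.05 and open otherwise; the bands show the middle 50% and 90% of all 12508 tested genes. PTGS2 and CXCL8 lie above the 95th percentile (0.49) and CXCL2 and CXCL3 below the 5th (-0.61), while LIF, CSF1 and IL11 lie between the 5th and the 25th (-0.18).

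Across the settings tried, LIF and CSF1 were called throughout and the calls of the 4 genes with fewer counts were not. CXCL8 was called in 9 of 17 other settings, IL11 in 11 of 17, CXCL2 in 11 of 16 and PTGS2 in 14 of 16, and the direction was the same in each. IL6 and CXCL3 were called in 0 of 16 settings each by edgeR, DESeq2 or limma; in the edgeR fit of all 6 libraries neither had an unadjusted p under 0.05 (0.214 and 0.125).

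**Figure D3:**
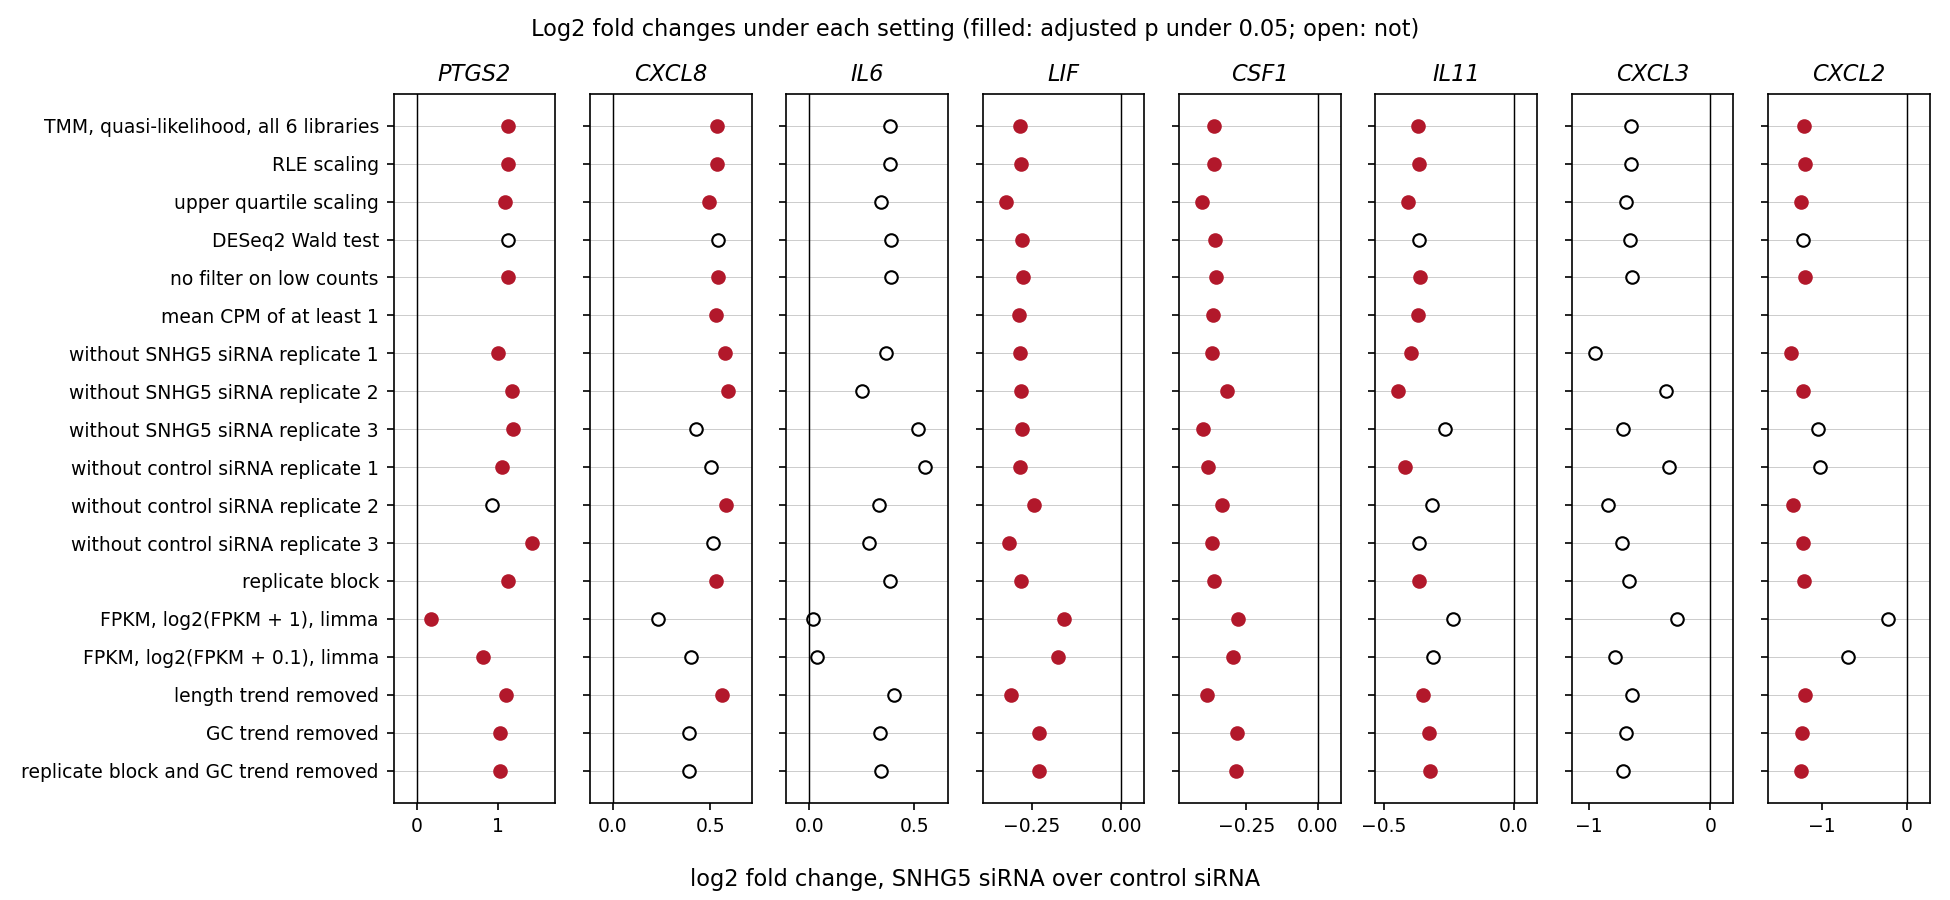
Log2 fold change of SNHG5 siRNA over control siRNA (x axis, own scale per gene) of the 8 tested genes under each setting (y axis), filled red where the adjusted p was under 0.05. LIF and CSF1 are filled in every row, PTGS2 in every row with a value but DESeq2 and the fit without control siRNA replicate 2, and no gene crosses 0.

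Levels of different genes were compared in the deposited FPKM, which account for transcript length. With SNHG5 siRNA the order was CSF1 (13.98 ± 0.51 FPKM), LIF (7.76 ± 0.10), IL11 (2.37 ± 0.35) and CXCL8 (1.30 ± 0.22), and with control siRNA it was CSF1 (17.2 ± 0.98), LIF (8.78 ± 0.34), IL11 (2.94 ± 0.21) and CXCL8 (0.955 ± 0.107; SD, n = 3 each). In both groups the ranges of these 4 genes did not overlap, so their order was the same in every library. The other 5 genes with counts lay below and overlapped: with SNHG5 siRNA CXCL3, PTGS2, CXCL2, IL6 and CXCL1 averaged 0.276, 0.229, 0.210, 0.133 and 0.109 FPKM, and with control siRNA 0.553, 0.0873, 0.426, 0.119 and 0.313 FPKM. PTGS2 was the lowest of the 9 on average with control siRNA and the sixth with SNHG5 siRNA, where its range of 0.202 to 0.275 FPKM overlapped those of CXCL3, CXCL2 and IL6. For genes with few counts the FPKM and the counts did not keep a fixed ratio: CPM per FPKM ran from 1.07 to 4.34 for CXCL1 and from 5.61 to 16.4 for IL6, but from 5.33 to 5.92 for CSF1. For PTGS2 it ran from 4.76 to 8.28, mostly below IL6, although the annotated transcript of IL6 is shorter (1527 against 4514 bases). The FPKM of IL6 thus do not match its annotated length. The order of the 5 lower genes, and the place of PTGS2 in it, is therefore uncertain.

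**Figure D4:**
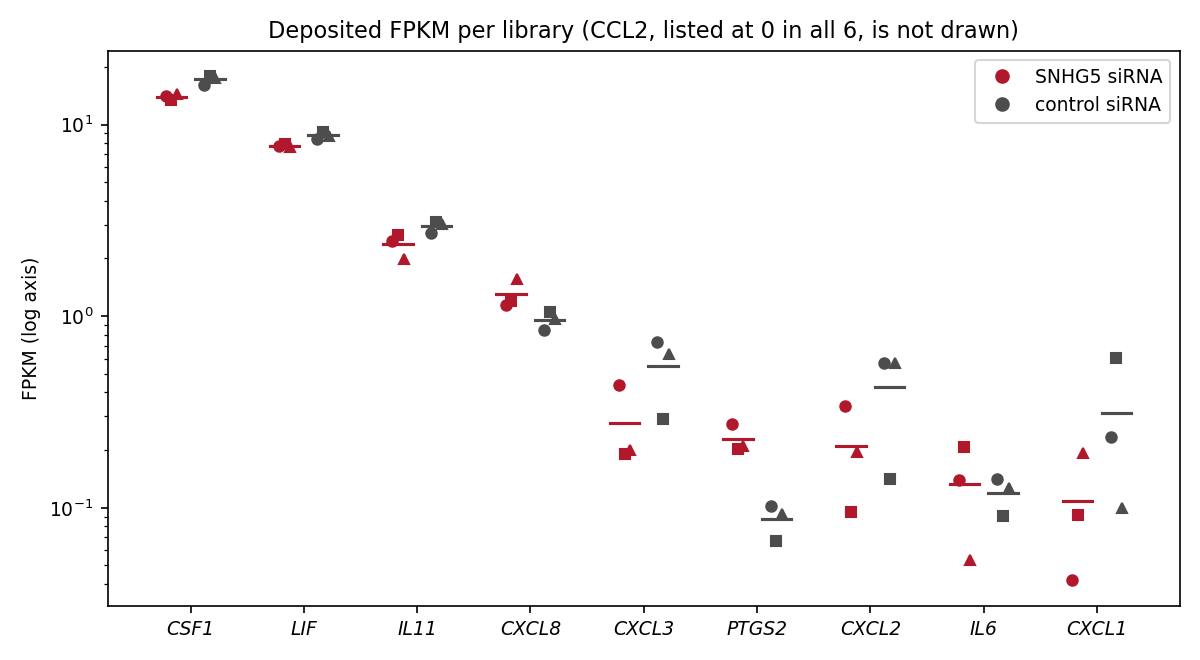
Deposited FPKM (log axis) of the 9 genes with counts in each SNHG5 siRNA library (red, left of each pair) and control siRNA library (grey, right); lines are means, symbols replicates as in the CPM plot. CSF1, LIF, IL11 and CXCL8 keep their order in all 6 libraries, and the 5 genes below overlap.

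The mRNAs share AU-rich words in their annotated 3' UTRs (GENCODE v29, GRCh38). The nonamer TTATTTATT was present in 7 of the 10, namely CXCL8, CXCL1, CXCL2, CXCL3, IL11, LIF and PTGS2, and in 6 of the 8 tested, against 8.89% of 12208 tested genes with a 3' UTR. The pentamer ATTTA was present in all 10, against 71.2% of those tested genes. There were 22 copies in PTGS2 and 10 in CXCL2, against a median of 2 copies over those tested genes. These copies are not scaled to the 3' UTR, of 2562 bases in PTGS2 and 721 in CXCL2, against a median of 1138.5. Per kb, the pentamers ran from 1.86 in CSF1 and 2.18 in LIF to 13.99 in IL6. For the genes called higher and lower that hold the nonamer, the 27 bases with the most pentamers are shown, on the strand of the gene and with the pentamers in capitals.
PTGS2, chr1:186674325-186674351, minus strand: agtctaatgatcatATTTATTTATTTA
CXCL8, chr4:73743111-73743137, plus strand: cctATTTAttATTTAtgtATTTATTTA
CXCL2, chr4:74097590-74097616, minus strand: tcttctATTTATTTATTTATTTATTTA
IL11, chr19:55365951-55365977, minus strand: caaagccagatcttATTTATTTATTTA
LIF, chr22:30240963-30240989, minus strand: tgtctccgggcccttATTTAttATTTA
Among the genes shown, chosen for holding the nonamer, were genes called higher (PTGS2 and CXCL8) and lower (CXCL2, IL11 and LIF). CSF1, also called lower, lacked the nonamer and had 4 pentamers. The series title names miR-92a-3p, whose mature sequence with its seed in capitals is shown because its site was searched in these genes.
miR-92a-3p: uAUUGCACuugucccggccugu
Its 7-base site GTGCAAT (pairing with bases 2 to 8) was in 0 of the 10 3' UTRs and in 11.6% of the 12208. The other 7-base site, TGCAATA (pairing with bases 2 to 7, then an A), was found once, in CXCL8; its share over all genes was not computed.

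Genes that bind, decode or control these signals were counted from lists, each beside the 40.2% of all tested genes called. Of 31 other chemokine genes, 20 were at 0 in every library and 2 were tested. CXCL16, a membrane-bound chemokine that also acts as a scavenger receptor, fell to 3.85, 3.52 and 3.66 CPM with SNHG5 siRNA, against 9.23, 7.32 and 9.38 CPM with control siRNA (log2 fold change -1.23 ± 0.14 SE, edgeR adjusted p = 8.23e-07). CCL26, an attractant of eosinophils, averaged 4.76 ± 0.32 CPM with SNHG5 siRNA and 3.94 ± 1.09 CPM with control siRNA and did not pass (edgeR adjusted p = 0.216), although without control siRNA replicate 3 it did (0.51, adjusted p = 0.0322) and without control siRNA replicate 2 its log2 fold change was 0.12.

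Of 14 tested genes for other cytokines, 2 rose, 3 fell and 9 did not pass, with a median log2 fold change of 0.03. EBI3, a subunit that pairs with other chains to form IL27 and IL35, fell to 29, 18 and 12 counts with SNHG5 siRNA, against 68, 75 and 71 counts with control siRNA, a 3.78-fold lower level (edgeR adjusted p = 3.06e-06). IL32 was 2.02-fold lower, at 4.73 ± 1.22 CPM with SNHG5 siRNA and 9.51 ± 0.54 CPM with control siRNA. CTF1, cardiotrophin and a relative of LIF, rose by 0.86 on the log2 scale, a call that ended without control siRNA replicate 3 (0.69, adjusted p = 0.0559), and IL18, a cytokine of the IL1 family, rose by 0.33. Without SNHG5 siRNA replicate 1, or without replicate 2, 5 of these genes were called lower.

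Of 13 tested receptor genes, 1 rose, 5 fell and 7 did not pass, with a median of -0.07. LIFR, the LIF receptor chain, fell to 28.9, 26.1 and 29.6 CPM with SNHG5 siRNA, against 48.3, 39.4 and 47.4 CPM with control siRNA (log2 fold change -0.68 ± 0.08 SE, edgeR adjusted p = 2.41e-06). IL6ST, the shared subunit, was 1.33-fold lower, at 294 ± 19 CPM with SNHG5 siRNA and 391 ± 17.5 CPM with control siRNA. IL6R, the chain that binds IL6, was 1.55-fold higher, at 3.80 ± 0.26 CPM with SNHG5 siRNA and 2.43 ± 0.22 CPM with control siRNA, and IL11RA was not called, at 0.16. ACKR3, an atypical chemokine receptor, fell by 0.56 on the log2 scale and PTGIR, the prostacyclin receptor, by 0.76. CXCR1 and CXCR2, the receptors of CXCL8, were at 0 in all 6 libraries, and CSF1R averaged 2.35 ± 0.54 CPM with SNHG5 siRNA and 2.47 ± 0.57 CPM with control siRNA (edgeR adjusted p = 0.827).

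Of 23 tested genes of JAK-STAT signalling, 2 rose, 6 fell and 15 did not pass, with a median of -0.11. SOCS2, a feedback inhibitor of cytokine signalling, was 2.58-fold lower, at 10.4 ± 1.23 CPM with SNHG5 siRNA and 26.7 ± 0.67 CPM with control siRNA (edgeR adjusted p = 1.43e-09), and SOCS3, the feedback inhibitor of IL6ST receptors, fell by 0.34 on the log2 scale. PTPN11, a phosphatase downstream of the receptors, rose by 0.34, while BCL3, a partner of NF-kB and a STAT3 target, fell by 0.45, a call absent in the FPKM (adjusted p = 0.0673 with 1 added). STAT3 itself was not called, at 0.10. The number called higher was 6 without SNHG5 siRNA replicate 2, and 1 without SNHG5 siRNA replicate 1, control siRNA replicate 1 or control siRNA replicate 2.

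Of 15 tested genes of prostaglandin synthesis and removal other than PTGS2, 3 rose, 7 fell and 5 did not pass, with a median of -0.22. PTGIS, prostacyclin synthase, was 1.90-fold higher, at 74.2, 71.8 and 78.6 CPM with SNHG5 siRNA and 38.9, 40.6 and 38.4 CPM with control siRNA (log2 fold change 0.93 ± 0.06 SE, edgeR adjusted p = 9.62e-10). PTGS1, the constitutive cyclooxygenase, had 1.03 ± 0.20 CPM with SNHG5 siRNA and 1.66 ± 0.12 CPM with control siRNA, a log2 fold change of -0.69 (edgeR adjusted p = 0.0351) whose call ended without any library other than SNHG5 siRNA replicate 2 (-0.60 to -0.75), with DESeq2 (adjusted p = 0.138) and in the FPKM (0.280 with 1 added, 0.225 with 0.1 added). The phospholipase genes PLA2G6 (-0.72) and PLA2G4C (-0.68) were called lower, PLA2G4C not without SNHG5 siRNA replicate 1 (-0.62) or 3 (-0.63) or control siRNA replicate 1 (-0.42) or with DESeq2 (adjusted p = 0.0671), and neither in the FPKM (adjusted p = 0.160 and 0.384 with 1 added). The number called lower was 4 without SNHG5 siRNA replicate 1. HPGD, which inactivates prostaglandins, was not called, at -0.18.

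Of 31 tested transcription factors and regulators known to act on promoters of this kind, 2 rose, 13 fell and 16 did not pass, with a median of -0.17. NFKB2, the precursor of the NF-kB subunit p52, was at 29.02, 29.04 and 28.63 CPM with SNHG5 siRNA and 61.72, 61.66 and 61.48 CPM with control siRNA (log2 fold change -1.10 ± 0.06 SE, edgeR adjusted p = 6.67e-11). NFKBIE, an inhibitor of NF-kB, fell by 1.12 on the log2 scale, and JUNB, an AP-1 subunit, by 1.03. CEBPA, at 0.293 ± 0.132 CPM with SNHG5 siRNA and 0.895 ± 0.081 CPM with control siRNA, had a log2 fold change of -1.597. Like CXCL2, it entered the test through its control libraries (limit 0.497 CPM), so its fall is read as a description. RELA fell by 0.18 and NFKB1 was not called, at -0.06. The number called higher was 1 without SNHG5 siRNA replicate 1 or 3 or any of the 3 control replicates, and the number lower was within 1.5 times of 13 whichever library was left out.

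Of 20 tested genes of AU-rich element binding and mRNA decay, 3 rose, 2 fell and 15 did not pass, with a median of -0.01. ARID5A, which stabilises IL6 mRNA in mouse cells, fell to 3.65 ± 0.74 CPM with SNHG5 siRNA, against 6.11 ± 0.42 CPM with control siRNA (edgeR adjusted p = 6.85e-04). ZFP36, which binds AU-rich elements and triggers decay, had a log2 fold change of -0.26 (edgeR adjusted p = 0.0376), and its call was lost without any library other than control siRNA replicate 2 (-0.22 to -0.28), which left 1 gene called lower, and with DESeq2 (adjusted p = 0.137), no filter (0.0547), the FPKM (0.0843 with 1 added), or the length (0.0549) or GC trend (0.0993) removed. MAPK14, the p38 kinase, rose by 0.34 and CELF1 by 0.23, while ELAVL1, HNRNPD and KHSRP, which bind AU-rich elements, were not called, at 0.009, -0.001 and 0.007.

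Of 22 tested sensors and adaptors upstream of NF-kB, 3 rose, 9 fell and 10 did not pass, with a median of -0.10. TAB2, an adaptor of the kinase TAK1, fell by 0.59 on the log2 scale, IFIH1 by 0.46, DDX58 by 0.41 (both sensors of viral RNA) and TLR4, the lipopolysaccharide receptor, by 0.43. The number called higher was 1 without control siRNA replicate 3. Of 14 tested ovulatory and cumulus genes other than PTGS2, 6 rose, 1 fell and 7 did not pass, with a median of 0.14. HAS2, which makes the hyaluronan of the cumulus matrix, had 65, 41 and 68 counts with SNHG5 siRNA and 16, 14 and 19 counts with control siRNA, 3.38-fold higher (edgeR adjusted p = 3.2e-05). VCAN, which encodes versican, rose by 0.44 and the EGF-like ligand gene BTC by 0.50 (a call absent in the FPKM, adjusted p = 0.1004 with 1 added), whereas ADAMTS1, the protease that cleaves versican, fell by 0.88. TNFAIP6, a cumulus matrix gene often induced together with PTGS2, was at 0 in all 6 libraries. The number of ovulatory genes called lower was 2 without SNHG5 siRNA replicate 1 or control siRNA replicate 2 and 3 without SNHG5 siRNA replicate 3.

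**Figure D5:**
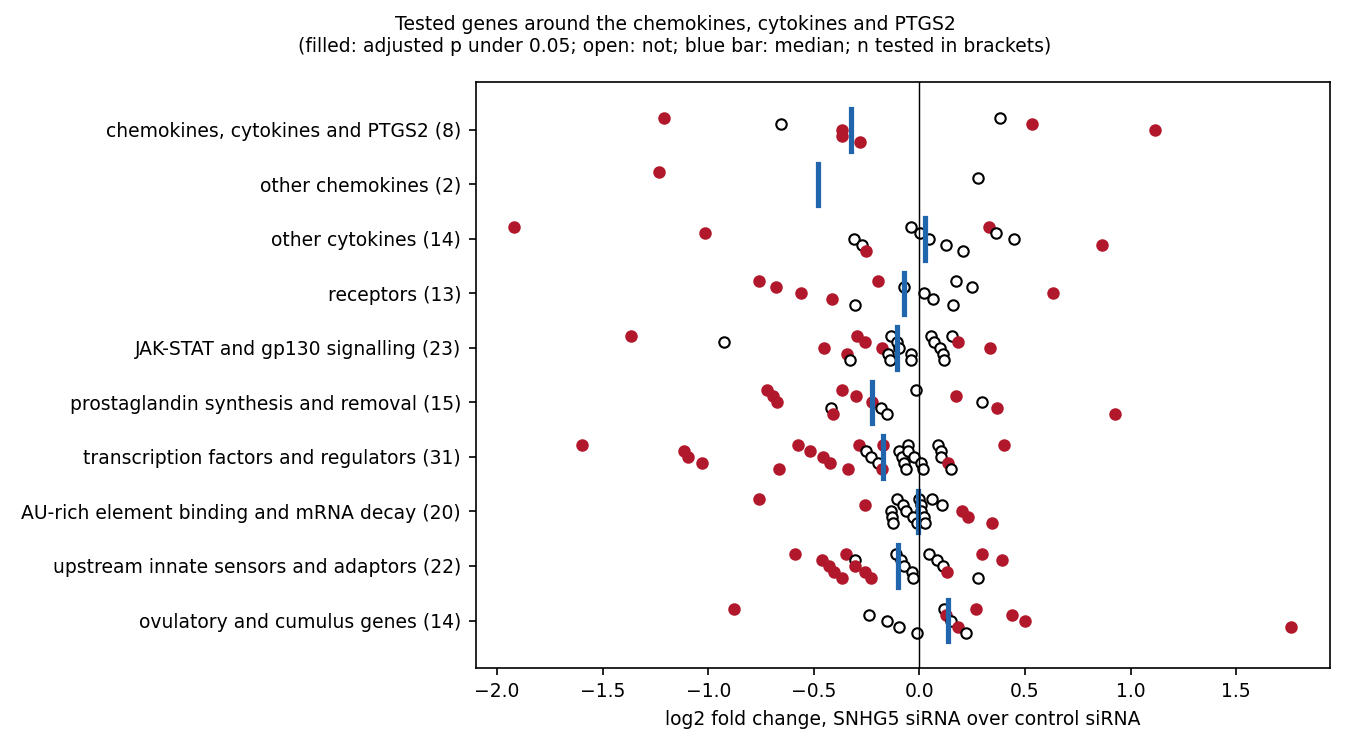
Log2 fold change of SNHG5 siRNA over control siRNA (x axis) of each tested gene of the set and of the 9 lists around it (y axis, number tested in brackets), filled red at an adjusted p under 0.05; blue bars are medians. PTGS2 and CXCL8 stand right of 0 and CXCL2 far to the left, and the medians of the lists run from -0.48 (2 genes) to 0.14.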

How the data were processed

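The 10 genes and all lists were chosen with earlier results of these data known. Libraries (SMARTER mRNA-seq kit, 1 µg of total RNA) were made from 6 KGN samples, per the labels' protocols. Reads were trimmed with Trimmomatic and the build was GRCh38, per the submitters' processing notes; which aligner, counting tool and annotation were used is not given in the sources used here. Values in the count table are deposited as whole-number counts per gene name, not normalised by the authors; the deposited FPKM table holds FPKM scaled by the authors to length and depth. The tables held 0 columns of other samples. Among gene names, 27 read as dates and 4 shared a name; they stayed in the tests, unnamed.

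CPM were computed from counts and library totals. edgeR 4.0.16 (R 4.3.3) with TMM factors of 0.998 to 1.003 and filterByExpr (minimum count 10) left 12508 of 20030 names for a 2-sided quasi-likelihood test, SNHG5 siRNA over control siRNA, Benjamini-Hochberg adjusted; it was checked on simulated counts. DESeq2 1.42.0 and limma 3.58.1 on log2(FPKM + 1) or log2(FPKM + 0.1), for genes with a mean of at least 0.1 FPKM, were alternatives, as were other scalings and filters, trends on length or GC removed (98.7% of tested genes had both), a replicate block and each library left out. Intervals of count ratios are exact binomial. Named genes were all 10, and per list up to 4 called genes by absolute log2 fold change, or the 2 highest in CPM where fewer than 2 were called; FOXL2, AMH, NR5A1, CYP11A1, PTPRC, CD3E, LYZ, CDH5, LUM, IL6ST, IL11RA, CXCR1, CXCR2, STAT3, HPGD, RELA, NFKB1, ELAVL1, HNRNPD, KHSRP and TNFAIP6 were added for their roles after their values were seen. Coordinates and 3' UTRs are from GENCODE v29, promoters and the miRNA from RefSeq. Python 3.11.15, Biopython 1.88 and matplotlib 3.10.9 were used.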

Additional observations from a re-analysis of the deposited data

How the results depend on the processing

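With DESeq2, 0 of the 10 genes were called higher and 2 lower (2 and 4 at an unadjusted p under 0.05), against 2 and 4 with edgeR. In the FPKM 1 was called higher and 2 lower with either added value, and 1658 of all genes were called lower with 0.1 added, against 2488 in the counts. With a mean of at least 1 CPM, 1 was called higher, CXCL8, while PTGS2, CXCL2, CXCL3 and IL6 did not enter the test. With the GC trend removed, alone or together with the replicate block, 1 was called higher, PTGS2, and CXCL8 lost its call. Leaving out each library in turn gave 1 to 2 called higher, 2 to 4 lower and 3991 to 5608 of all genes called. CSF1R, never called, ran from -0.26 to 0.06 in those fits and changed sign without SNHG5 siRNA replicate 3 (0.065), control siRNA replicate 2 (0.036) or control siRNA replicate 3 (0.023). With upper quartile scaling 39.9% of called genes were higher, against 50.5% with TMM, and the median of all genes was -0.05; the 10 genes kept their calls. The cause of these shifts was not tested. Same-numbered replicates correlated at 0.05, 0.13 and 0.03 in their deviations from the group means. Among pairs with unlike numbers, SNHG5 siRNA replicate 3 and control siRNA replicate 1 correlated at 0.08. The rest ran from -0.12 to -0.01. The labels do not say that the numbers pair samples, and these values do not settle it. The main fit therefore held no replicate block, and the block was an alternative. With the replicate block 5714 genes were called, against 5026 without it, and among the 10 genes the same 2 were higher and the same 4 lower. Counts of 5 to 30 per library limit CXCL2, CXCL3, IL6 and PTGS2, where the SE of the log2 fold change was 0.30 to 0.41, against 0.06 for LIF and CSF1.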

Other observations

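Several related genes had too few counts to enter the test and were picked after their values were seen. IL1B, the inflammatory cytokine whose gene is a classical NF-kB target, had 2, 0 and 1 counts with SNHG5 siRNA and 11, 5 and 12 counts with control siRNA. The groups did not overlap, the summed counts divided by library totals had a ratio of 0.103 (exact 95% limits 0.0201 to 0.334, counting error only), and with no filter on low counts edgeR called it lower (adjusted p = 9.84e-04). IL1RN, which encodes the antagonist of the IL1 receptor, had 7, 2 and 0 counts with SNHG5 siRNA and 8, 12 and 12 counts with control siRNA, a ratio of 0.271 (0.114 to 0.580), and was also called in that fit (adjusted p = 0.0140). IL1A had 7, 10 and 2 counts with SNHG5 siRNA and 20, 9 and 6 counts with control siRNA, groups that overlapped, and was not called (adjusted p = 0.178). IL37 went the other way, with 6, 14 and 13 counts with SNHG5 siRNA and 6 in each control library. Its ratio was 1.76 (0.965 to 3.33), and it was not called (edgeR adjusted p = 0.249). The fit with no filter called 5232 of 15924 genes.

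PTGES, the inducible prostaglandin E synthase that acts after PTGS2, had 4, 3 and 7 counts with SNHG5 siRNA and 7, 9 and 19 counts with control siRNA, a ratio of 0.385 (0.191 to 0.734), with an adjusted p of 0.0461 with no filter in edgeR. SNHG5 siRNA replicate 3 and control siRNA replicate 1 had the same count of 7. The pair PTGS2 and PTGES thus had ratios of 2.20 and 0.385 on counts of 8 to 30 and 3 to 19 per library.

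The pattern of CSF1 over the 6 libraries was most like those of PCIF1 and SLC10A3 (Pearson r of log2 CPM 0.998 and 0.997), and that of PTGS2 like those of CAP1, METTL6 and STAT5B (0.995, 0.994 and 0.994). Any gene that differs between the groups in the same direction scores high over 6 libraries in 2 groups: 400 genes had an r over 0.95 with CSF1 and 241 with PTGS2.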
